A study of Mus musculus with 8 samples.

Results

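The genes described here are 10 transcription factors of the endothelial lineage, followed in mouse brain endothelial cells given corticosterone. They are Sox7, Sox17 and Sox18 of the SOXF group, Erg, Fli1, Ets1 and Ets2 of the ETS family, Gata2, Tal1, and the forkhead factor Foxo1. They were chosen by name as known regulators of endothelial cells and make up 10 of the 35852 genes in the count table. All 10 passed the filter on low counts.

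RNA was sequenced from bEnd3 cells, an established mouse line derived from brain endothelium. Cells received 5 µM corticosterone, the main glucocorticoid hormone of mice, for 24 h in 4 samples, and 4 samples were kept in medium. The libraries were directional and made from poly(A) RNA. No genotype, transgene or vehicle is named in the labels, all samples come from the same line, and corticosterone also stands in the treatment protocol given for the medium samples. Whether replicates are separate cultures is not stated. The p-values set differences against the spread among these libraries, which may not be the spread among separate cultures. The question is how the hormone alters the expression of these genes.

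SOXF, ETS and GATA factors act in endothelial cells through enhancers that often hold sites for several of them side by side. ERG and FLI1 keep vascular genes such as the cadherin gene Cdh5 active, the SOXF factors act in arterial and lymphatic fate and in the brain vasculature, and TAL1 binds DNA as a complex with E proteins, LMO2, LDB1 and GATA factors. FOXO1 restrains endothelial growth and metabolism and is kept out of the nucleus when AKT or SGK kinases phosphorylate it. mRNA levels, which are what was measured here, do not show the amount, position or activity of these proteins.

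Corticosterone replicates 1 and 2 stood apart from the other 6 libraries. Among 61001 transcripts at least 1000 nt long, the effective length in their tables was 1 nt more than the whole transcript for 100%, against 0% in the other libraries. Per gene, the chi-square between counts was 47.4 to 107 for within-group pairs that held one of them and 2.18 to 4.73 for the other within-group pairs. Values and calls of the 10 genes, and the calls of other genes, are therefore also given without them, as "in 6 libraries". Library totals were 19746273 to 46206883 estimated counts, and the members had 1287 to 19984 counts per library. The endothelial label was met: all 8 defining markers were tested, among them Cdh5 at 1867 and Pecam1 at 1673 CPM in medium, and their summed level was 7383 to 7874 CPM in medium and 8186 to 8467 CPM with corticosterone. CPM are counts per 1000000 counts of the library.

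Members of one family share sequence, which bears on whether reads can be told apart. The coding stretches of 60 bases that are most alike are shown for that reason, from the annotated GENCODE M21 transcripts, 5′ to 3′, numbered from the first base of the start codon. Capitals mark bases that differ from the first gene of each set. In the SOXF set the stretch begins at base 352 in Sox17, 283 in Sox7 and 385 in Sox18, and Sox7 differs from Sox17 at 6 and Sox18 at 7 of the 60 bases.
Sox17: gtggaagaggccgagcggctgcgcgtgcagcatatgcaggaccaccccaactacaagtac
Sox7: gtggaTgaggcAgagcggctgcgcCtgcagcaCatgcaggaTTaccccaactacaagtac
Sox18: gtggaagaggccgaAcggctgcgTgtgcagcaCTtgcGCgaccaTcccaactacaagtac

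The 2 ETS pairs are shown for the same reason. The stretch begins at base 977 in Erg and 956 in Fli1, which differ at 5 bases, and at base 976 in Ets1 and 1057 in Ets2, which differ at 8 bases.
Erg: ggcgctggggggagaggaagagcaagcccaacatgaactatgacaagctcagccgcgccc
Fli1: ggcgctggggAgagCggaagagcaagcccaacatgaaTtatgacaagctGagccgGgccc
Ets1: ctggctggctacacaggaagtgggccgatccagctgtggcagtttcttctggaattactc
Ets2: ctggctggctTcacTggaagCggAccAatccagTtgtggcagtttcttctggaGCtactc

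Even so, the longest identical coding run was 29 bases, between Sox17 and Sox18, and 13 to 22 bases in the other 8 pairs of one family. Over all transcripts, 84.3% of the 31-base words of Sox17 and 92.0% of those of Foxo1 occurred in no other annotated gene, against 98.9% to 100% for the other 8 members. Genes on the opposite strand overlap Sox17 (Gm37587), Fli1 (Gm27201), Ets1 (Gm27240) and Foxo1 (Gm20402). On the same strand, Gm22060, Gm38292, Gm38346, Gm37474 and Gm37082 overlap Fli1, and Gm38034 overlaps Foxo1. None of these overlapping genes is among the deposited transcripts, so they had no counts of their own. The strand setting of the counting is not given in the sources used here.

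All 10 genes changed with corticosterone at an adjusted p under 0.05 (edgeR quasi-likelihood test, Benjamini-Hochberg over 13272 genes), 5 higher and 5 lower. The background is high: 40.1% of all tested genes changed, 19.5% higher and 20.6% lower. Limma on TPM called 1034 genes higher and 641 lower, against 2590 and 2737 by the count test. Groups did not overlap in 9 of the 10 genes, against 39.9% of all tested genes. The median absolute log2 fold change was 0.31 in the 10 genes and 0.14 in all genes, while the medians of the signed changes were -0.020 and -0.0046. In 6 libraries, where 36.4% of 13639 genes changed, 4 members were higher and 5 lower. Sox17 rose most and Sox7 fell most. Below, levels are CPM scaled by TMM, which corrects library totals for composition, means are ± SD (n = 4 libraries), and fold changes are ± SE.

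**Figure D1:**
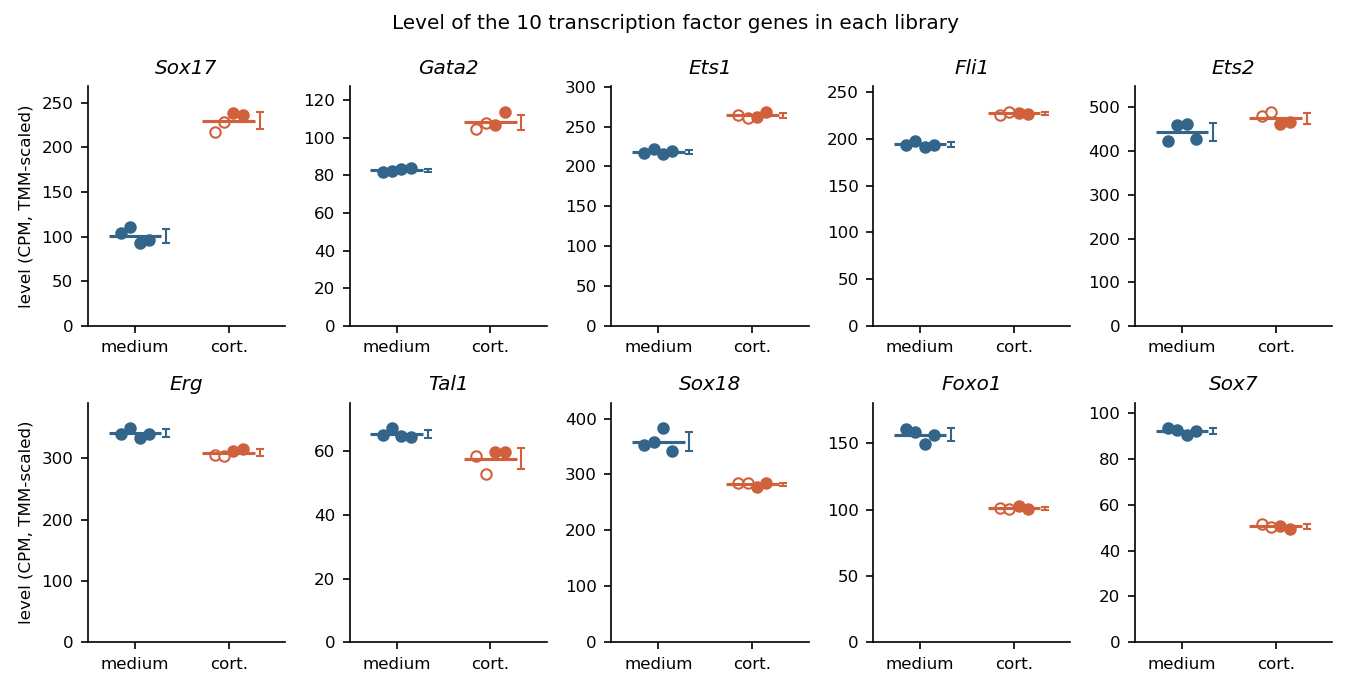
Level of each gene per library (vertical axes, CPM after TMM scaling, from 0) in medium and corticosterone (cort.); open circles are corticosterone replicates 1 and 2, horizontal lines are means and bars ± SD of 4 libraries. In 9 genes the groups are apart; in Ets2 the medium range of 424 to 463 CPM meets the corticosterone range of 462 to 490 CPM.

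Sox17 (ENSMUSG00000025902.13, chromosome 1, 4490931 to 4497354, minus strand, GRCm38) is a regulator of arterial identity. Its level in medium replicates 1 to 4 was 104, 111, 93.4 and 96.0 CPM. With corticosterone it was 217, 228, 239 and 237 CPM. The lowest corticosterone library was far above the highest medium library. The mean rose from 101 ± 7.89 to 230 ± 9.84 CPM, giving a log2 fold change of 1.19 ± 0.056 (edgeR, adjusted p = 1.5e-07), or 1.23 ± 0.057 in 6 libraries (adjusted p = 3.9e-07). Of all tested genes, 96.0% had a smaller absolute change. In bulk RNA such as this, more cells with a transcript and more of it per cell cannot be told apart.

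Sox7 (ENSMUSG00000063060.6, chromosome 14, 63943673 to 63950732, plus strand) is a SOXF factor with roles in vessel formation. It stood at 93.2, 92.4, 90.2 and 92.1 CPM in medium and at 51.7, 50.3, 50.9 and 49.2 CPM with corticosterone. The libraries of each group lay close together and the groups were far apart. The mean fell from 92.0 ± 1.27 to 50.5 ± 1.06 CPM, giving a log2 fold change of -0.87 ± 0.026 (edgeR, adjusted p = 6.4e-11), or -0.88 ± 0.036 in 6 libraries (adjusted p = 1.1e-12).

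Sox18 (ENSMUSG00000046470.5, chromosome 2, 181669836 to 181671640, minus strand) is known for its part in lymphatic and blood vessel development. Medium libraries had 353, 357, 383 and 342 CPM, and corticosterone libraries 284, 284, 278 and 285 CPM. All 4 corticosterone libraries were below the lowest medium library. The mean fell from 359 ± 17.1 to 283 ± 2.94 CPM, giving a log2 fold change of -0.34 ± 0.032 (edgeR, adjusted p = 2.3e-06), or -0.35 ± 0.039 in 6 libraries (adjusted p = 1.9e-06).

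A ratio of 2 genes within one library does not depend on how libraries are scaled. The log2 ratio of Sox7 to Sox17 counts was -0.26 to -0.05 in medium, close to equal counts, and -2.27 to -2.07 with corticosterone. The difference in means was -2.05, or -2.11 in 6 libraries. For Sox17 to Sox18 the ratio moved from a mean of -1.83 ± 0.15 to -0.30 ± 0.071, a difference of 1.53 (1.59 in 6 libraries). For Sox7 to Sox18 it moved from -1.962 ± 0.084 to -2.48 ± 0.038, a difference of -0.52 (-0.53 in 6 libraries). Each of these 3 differences had p = 0.02857 in a two-sided exact permutation test, the smallest p that 4 against 4 libraries allow, and an adjusted p of 0.03214 over the 9 pairs tested. With 2 against 4 libraries the same test allows no p under 0.1333.

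Levels of different genes can be compared only per length, as TPM (transcripts per 1000000 transcripts). Of the summed SOXF TPM, Sox17 made up 22.5% to 26.4% in medium libraries and 50.1% in both corticosterone replicates 3 and 4. Sox18 made up 66.2% to 70.4% in medium and 46.3% and 46.4% in those 2 libraries. Sox7 made up 7.16% to 7.86% in medium and 3.66% and 3.45% there. Sox18 was the SOXF gene with the highest TPM in every medium library, and Sox17 the highest in corticosterone replicates 3 and 4. In corticosterone replicates 1 and 2, whose TPM are on another scale, Sox17 made up 38.6% and 49.3% and Sox18 56.4% and 46.6%. TPM also depend on how counts are assigned to transcripts. The transcript Sox17-204, 840 nt long, held 24.2% to 25.1% of Sox17 counts in medium. With corticosterone it held 24.6% and 25.4% in replicates 3 and 4, and 0.405% and 36.5% in replicates 1 and 2. In counts Sox17 stayed below Sox18 in all 4 corticosterone libraries (log2 ratio -0.39 to -0.22).

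Among the ETS members, Erg fell, and Fli1 and Ets1 rose, all by less than the SOXF genes Sox7 and Sox17. Erg (ENSMUSG00000040732.20, chromosome 16, 95359169 to 95586593, minus strand), a factor that maintains endothelial identity, had 340, 349, 333 and 341 CPM in medium and 306, 305, 313 and 316 CPM with corticosterone. The groups did not overlap, with 333 CPM the lowest medium and 316 CPM the highest corticosterone value. The mean fell from 341 ± 6.58 to 309.7 ± 5.38 CPM, giving a log2 fold change of -0.14 ± 0.024 (edgeR, adjusted p = 0.00046). In 6 libraries it was -0.11 ± 0.029 (adjusted p = 0.0048). It missed the threshold in limma on TPM of 8 libraries (-0.09, adjusted p = 0.43) and passed it in 6 (-0.18, adjusted p = 0.012). Of all tested genes, 50.04% had a smaller absolute change, so the size was that of a typical gene.

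Fli1 (ENSMUSG00000016087.13, chromosome 9, 32422204 to 32542861, minus strand), the closest relative of Erg, had 194, 198, 192 and 193 CPM in medium. With corticosterone it had 226, 229, 227 and 227 CPM. All corticosterone libraries were above all medium libraries. The mean rose from 194 ± 2.79 to 227 ± 1.35 CPM, giving a log2 fold change of 0.23 ± 0.022 (edgeR, adjusted p = 3.3e-06), or 0.23 ± 0.028 in 6 libraries (adjusted p = 3.7e-06).

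Ets1 (ENSMUSG00000032035.15, chromosome 9, 32636221 to 32757820, plus strand), an effector of MAP kinase signals in angiogenic cells, had 217, 221, 216 and 219.8 CPM in medium. With corticosterone it had 264, 260.4, 262 and 269 CPM, again above all medium libraries. The mean rose from 219 ± 2.50 to 264 ± 3.56 CPM, giving a log2 fold change of 0.27 ± 0.022 (edgeR, adjusted p = 7.3e-07), or 0.28 ± 0.028 in 6 libraries (adjusted p = 2.3e-07). Limma on TPM gave 0.44 in 8 libraries and 0.25 in 6 for Ets1. With no filter on low counts in 8 libraries it missed the threshold for Ets1 (adjusted p = 0.055) and Fli1 (adjusted p = 0.065).

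Ets2 (ENSMUSG00000022895.16, chromosome 16, 95702075 to 95721051, plus strand), a paralog of Ets1, had 424, 459, 463 and 428 CPM in medium and 481, 490.2, 462 and 466 CPM with corticosterone. Medium replicate 3 lay above corticosterone replicate 3, so the groups overlapped. The mean rose from 444 ± 20.6 to 475 ± 13.0 CPM, giving a log2 fold change of 0.10 ± 0.034 (edgeR, adjusted p = 0.034). The call was lost in 6 libraries, at 0.07 ± 0.037 (adjusted p = 0.157). It was also lost without corticosterone replicate 1 (adjusted p = 0.075) or 2 (0.080), and without medium replicate 1 (0.091) or 4 (0.115).

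These 4 genes form 2 neighbouring pairs. Erg and Ets2 lie 115.5 kb apart on chromosome 16 and Fli1 and Ets1 93.4 kb apart on chromosome 9, each pair on opposite strands with 0 protein-coding genes between them. Within the chromosome 9 pair both genes rose, by 0.23 and 0.27. The log2 ratio of Fli1 to Ets1 counts was -0.19 to -0.16 in medium and -0.24 to -0.18 with corticosterone. Those ranges overlapped, the difference was -0.04 (-0.05 in 6 libraries), and it missed the threshold (two-sided exact permutation test, p = 0.05714).

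In the chromosome 16 pair Erg fell and Ets2 had the weak rise above. The ratio of Erg to Ets2 moved by -0.24 (-0.18 in 6 libraries). The ratio of Erg to Fli1 moved from 0.81 ± 0.0093 to 0.45 ± 0.029, a difference of -0.37 (-0.34 in 6 libraries). Erg counts were thus 1.75 times those of Fli1 in medium and 1.36 times with corticosterone. Erg to Ets1 moved by -0.41 (-0.40 in 6 libraries), Fli1 to Ets2 by 0.13 (0.16) and Ets1 to Ets2 by 0.17 (0.21). These 5 differences each had p = 0.02857 in the two-sided exact permutation test (adjusted p = 0.03214). As TPM ratios, Fli1 to Ets2 and Ets1 to Ets2 missed the threshold (adjusted p = 0.743 and 0.129, exact permutation), and Fli1 to Ets1 passed it, at -0.12 (adjusted p = 0.037).

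**Figure D2:**
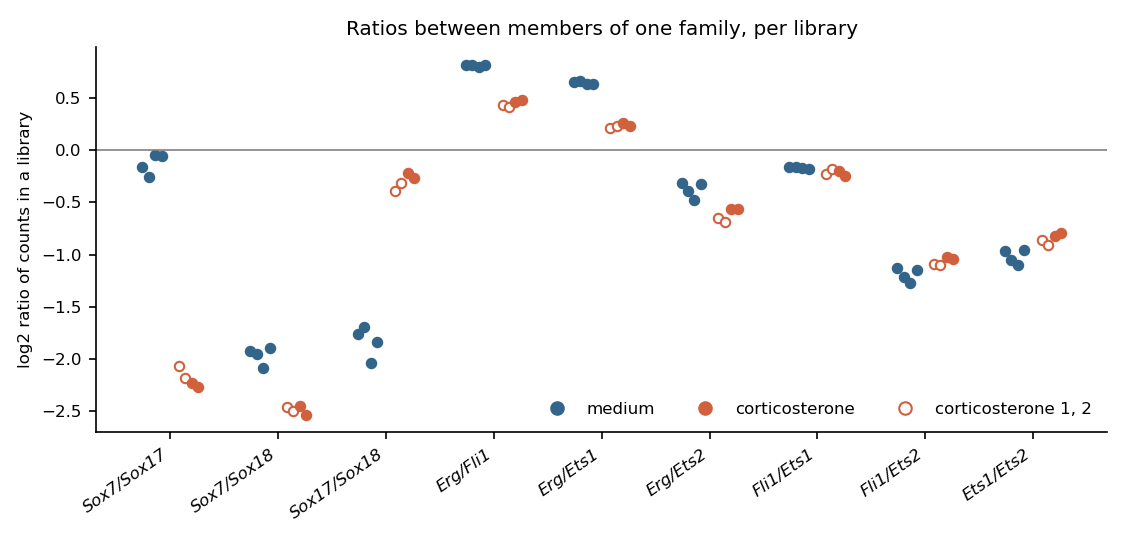
Log2 ratio of the counts of 2 members of one family (vertical axis) in each library, for 3 SOXF and 6 ETS pairs; open circles are corticosterone replicates 1 and 2. Medium and corticosterone are apart in 8 pairs and overlap in Fli1/Ets1; the widest shift is in Sox7/Sox17, from about equal counts to a mean log2 ratio of -2.19.

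Gata2 (ENSMUSG00000015053.14, chromosome 6, 88193891 to 88207032, plus strand) is a zinc finger factor of endothelial and blood stem cells. It had 81.9, 82.3, 83.1 and 83.6 CPM in medium and 104, 108, 107 and 114 CPM with corticosterone. The medium libraries were tightly grouped and all lay below the corticosterone libraries. The mean rose from 82.7 ± 0.795 to 108 ± 4.003 CPM, giving a log2 fold change of 0.39 ± 0.028 (edgeR, adjusted p = 3.1e-07), or 0.42 ± 0.034 in 6 libraries (adjusted p = 1.4e-08). On the TPM scale the difference was wider. Gata2 had 38.9 to 41.5 TPM in medium and 67.1 and 67.4 TPM in corticosterone replicates 3 and 4. Corticosterone replicates 1 and 2, whose TPM are on another scale, had 67.2 and 105 TPM. Limma on TPM gave 0.89 in 8 libraries (adjusted p = 0.0036) and 0.73 in 6 (adjusted p = 4.3e-05). Counts of a short transcript weigh more in TPM. The 423 nt Gata2-203 shares its start with Gata2-201. Together they held 73.0%, 78.5% and 23.5% of Gata2 counts in corticosterone replicates 3, 4 and 2. Gata2-201 alone held 71.3%, 77.1% and 11.5%. In medium the ranges were 70.7% to 76.4% and 70.6% to 76.4%. The part of Gata2-203 in the TPM difference was not tested.

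Tal1 (ENSMUSG00000028717.12, chromosome 4, 115056426 to 115071755, plus strand), a basic helix-loop-helix factor shared by blood and endothelial precursors, moved the other way. It had 64.8, 67.1, 64.7 and 64.3 CPM in medium and 58.2, 52.8, 59.7 and 59.5 CPM with corticosterone. The groups did not overlap, and corticosterone replicate 2 was the lowest library. The mean fell from 65.2 ± 1.24 to 57.6 ± 3.25 CPM, giving a log2 fold change of -0.18 ± 0.039 (edgeR, adjusted p = 0.0024), or -0.13 ± 0.036 in 6 libraries (adjusted p = 0.011). The fall missed the threshold in limma on TPM, where it was -0.20 in 8 libraries (adjusted p = 0.311) and -0.03 in 6 libraries (adjusted p = 0.819).

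A list called partners here holds other GATA genes, partners of GATA and TAL1 factors, and inhibitors of E proteins. Of its 21 tested genes, 5 were higher and 10 lower with corticosterone, in 8 and in 6 libraries alike. Over all tested genes, 19.5% were higher and 20.6% lower in 8 libraries. The median log2 fold change was -0.21 in the partners and -0.0046 in all genes. Genes for parts of the TAL1 complex went different ways. The bridging factor Lmo2 changed by -0.35 ± 0.047 (edgeR, adjusted p = 0.00014), its binding partner Ldb1 by -0.23 ± 0.026, and the E protein genes Tcf3 and Tcf4 by -0.22 ± 0.029 and -0.15 ± 0.025. In 6 libraries these 4 stood at -0.34, -0.21, -0.20 and -0.16, all past the threshold. In limma on TPM of 8 libraries none of the 4 passed (adjusted p = 0.057, 0.293, 0.355 and 0.493), and in 6 libraries Lmo2 missed it too (adjusted p = 0.117). The E protein gene Tcf12 missed the threshold (edgeR, adjusted p = 0.99), and Gata2 rose as given above. The genes of this paragraph other than Gata2 were chosen for the text after their values were seen.

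Ssbp3, which stabilises LDB1, fell from 86.3 to 58.4 CPM (log2 -0.56 ± 0.033, adjusted p = 3.4e-08, edgeR). Ldb2, a relative of Ldb1, rose from 56.3 to 73.6 CPM (0.39 ± 0.030, adjusted p = 4.3e-07). Id1, an inhibitor that sequesters E proteins, rose from 88.5 to 122 CPM (0.46 ± 0.035, adjusted p = 4.2e-07), whereas Id2, another of that class, named after its value was seen, changed by -0.92 ± 0.073 (adjusted p = 1.4e-05). Gata3 fell from 3.07 to 1.02 CPM and the GATA cofactor gene Zfpm2 from 20.7 to 13.6 CPM, and Lmo1 rose from 52.1 to 59.7 CPM. All of these kept their direction and call in 6 libraries by edgeR. In limma on TPM of 8 libraries Ssbp3, Ldb2 and Lmo1 missed the threshold (adjusted p = 0.206, 0.160 and 0.636), and Ldb2 also in 6 (0.344).

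Foxo1 (ENSMUSG00000044167.6, chromosome 3, 52268336 to 52353221, plus strand) had 161, 159, 149 and 156 CPM in medium and 101, 100.4, 103 and 100.2 CPM with corticosterone. The corticosterone libraries were nearly equal to each other and all far below the medium libraries. The mean fell from 156 ± 5.01 to 101 ± 1.06 CPM, giving a log2 fold change of -0.63 ± 0.027 (edgeR, adjusted p = 1.8e-09), or -0.62 ± 0.035 in 6 libraries (adjusted p = 7.6e-11). Of all tested genes, 89.3% had a smaller absolute change. The related genes Foxo3 and Foxo4 fell by 0.13 and 0.20 on the log2 scale (edgeR, adjusted p = 0.0017 and 0.0075), and kept that call in 6 libraries. In limma on TPM of 8 libraries both missed the threshold (adjusted p = 0.867 and 0.43), and Foxo3 also in 6 (0.112).

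Over all tested genes, 20.6% were lower and 19.5% higher in 8 libraries. Of 27 tested genes known as FOXO1 targets, 14 were lower and 5 higher (12 and 5 in 6 libraries), with a median of -0.15. The largest falls among them were in angiogenic genes of endothelial tip cells. Esm1 fell from 15.2 ± 1.41 to 2.49 ± 0.309 CPM (log2 -2.61 ± 0.10, edgeR, adjusted p = 7.5e-10). Angpt2, the TIE2 antagonist, fell from 13.2 ± 0.952 to 2.81 ± 0.249 CPM (-2.22 ± 0.087), and Apln, the apelin gene, from 774 ± 22.4 to 214 ± 14.6 CPM (-1.85 ± 0.047). Among the 5 that rose, Sesn1, a stress response gene, went from 13.5 to 26.2 CPM (0.95 ± 0.049), the insulin receptor gene Insr from 31.02 to 39.7 CPM (0.36 ± 0.043) and the cell cycle inhibitor Cdkn1a from 353 to 404 CPM (0.19 ± 0.026). The other 2, named after their values were seen, were Txnip (0.16) and Sod2 (0.12). The 8 genes named here kept their calls in 6 libraries by edgeR. In limma on TPM of 8 libraries Insr, Cdkn1a, Txnip and Sod2 missed the threshold (adjusted p = 0.318, 0.151, 0.121 and 0.434). In 6 libraries Insr and Txnip missed it there too (0.65 and 0.172). Sod2 lost its call without corticosterone replicate 2 or 3 or medium replicate 1 or 4 (adjusted p = 0.052, 0.051, 0.055 and 0.064). Many of these genes are bound by other factors as well. The list does not separate genes that FOXO1 raises from those it lowers, and a link to the fall of Foxo1 was not tested.

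Of 24 kinases and other regulators of FOXO1, 3 were higher and 9 lower, or 5 and 9 in 6 libraries. Over all tested genes, 19.5% were higher and 20.6% lower in 8 libraries, and 36.4% changed in 6. Sgk1, a kinase that phosphorylates FOXO proteins and a known glucocorticoid target, rose from 188 ± 2.62 to 442 ± 13.2 CPM (log2 1.23 ± 0.026, edgeR, adjusted p = 4.0e-12), or by 1.24 in 6 libraries. The 14-3-3 genes Ywhag and Ywhab, whose products hold phosphorylated FOXO1 in the cytoplasm, rose by 0.16 and 0.13. Skp2, which marks FOXO1 for degradation, fell from 33.1 to 25.8 CPM (-0.36 ± 0.058), and the kinase gene Cdk2 and the acetyltransferase gene Ep300 fell by 0.15 and 0.14. These 6 genes kept their calls in 6 libraries by edgeR. In limma on TPM of 8 libraries Ywhag, Ywhab, Skp2, Cdk2 and Ep300 missed the threshold (adjusted p = 0.1045, 0.146, 0.106, 0.734 and 0.466). In 6 libraries Ywhag, Ywhab, Cdk2 and Ep300 missed it there too (0.082, 0.102, 0.055 and 0.163).

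**Figure D3:**
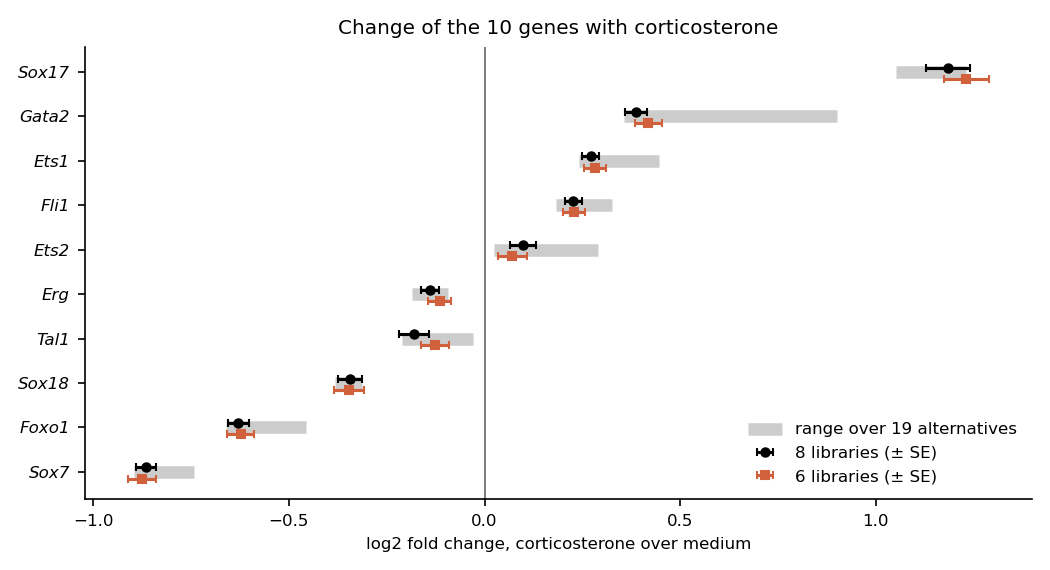
Log2 fold change of the 10 genes (horizontal axis, corticosterone over medium) in 8 libraries (circles) and 6 libraries (squares), both ± SE, with grey bands for the range over 19 alternative settings. No band crosses 0; those of Ets2, from 0.02 to 0.29, and Tal1, from -0.21 to -0.03, come closest to it.

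In medium the order of the 10 genes by TPM was Sox18 (378 ± 15.1), Erg (229.9 ± 7.504), Ets2 (179.6 ± 7.79), Sox17 (138 ± 11.6), Fli1 (98.3 ± 1.63), Ets1 (62.6 ± 1.01), Sox7 (41.7 ± 1.06), Gata2 (40.2 ± 1.03), Tal1 (37.6 ± 2.80) and Foxo1 (25.1 ± 1.05). Neighbours in this order did not overlap over the 4 libraries, except Sox7 with Gata2 and Gata2 with Tal1. In corticosterone replicates 3 and 4, Sox17 was highest, at 311 and 316 TPM, above Sox18 at 287 and 292 TPM. Foxo1 stayed lowest there, at 16.3 and 15.7 TPM. The TPM of Sox17 depend on its transcript shares, as given above. Of the summed TPM of the whole ETS family in medium, Erg made up 21.5%, Ets2 16.8%, Fli1 9.20% and Ets1 5.86%. All 4 together made up 52.5% to 54.2% of that sum in medium and 55.5% and 56.1% in corticosterone replicates 3 and 4, a difference that was not tested.

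The annotation lists 42 transcripts for the 10 genes, and 20 of them held at least 5% of their gene's counts. In 6 genes a single transcript did. In the other 4 genes (Sox17, Erg, Gata2, Tal1), 14 transcripts were compared, and 0 passed the threshold, adjusted or unadjusted (two-sided exact permutation test, with 0.02857 the smallest p possible). Shares in corticosterone replicate 1 lay outside the range of the other 6 libraries for 11 of these transcripts, and in replicate 2 for all 14. The test therefore compared groups of which one was very wide. Shares of TPM gave 0 past the threshold as well.

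Gata2 showed this most. Gata2-202, which begins at the upstream start at 88193891, held 21.1% to 26.6% of the gene's counts in medium, and 24.8% and 19.5% in corticosterone replicates 3 and 4. In corticosterone replicates 1 and 2 it held 95.8% and 72.9%. Gata2-201, which begins at 88198334, held 70.6% to 76.4% in medium, 71.3% and 77.1% in replicates 3 and 4, and 0.925% and 11.5% in replicates 1 and 2. Gata2's total CPM did not follow this split, with 104 to 114 CPM in all 4 corticosterone libraries.

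In the other genes the main start was the same in the 6 libraries that agreed in effective length. Erg transcripts that begin between 95459245 and 95459348 held 87.7% to 92.9% of Erg counts there, against 76.9% and 99.6% in corticosterone replicates 1 and 2. Tal1-201, from the start at 115056426, held 66.4% to 79.3% there, against 88.8% and 40.9%. Sox17 transcripts that begin between 4496330 and 4496757 held 68.4% to 69.8% there, against 94.4% and 56.8%. For Sox17, whose level changed most, corticosterone replicates 3 and 4 had 69.2% and 68.4% from these starts and medium 68.9% to 69.8%.

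**Figure D4:**
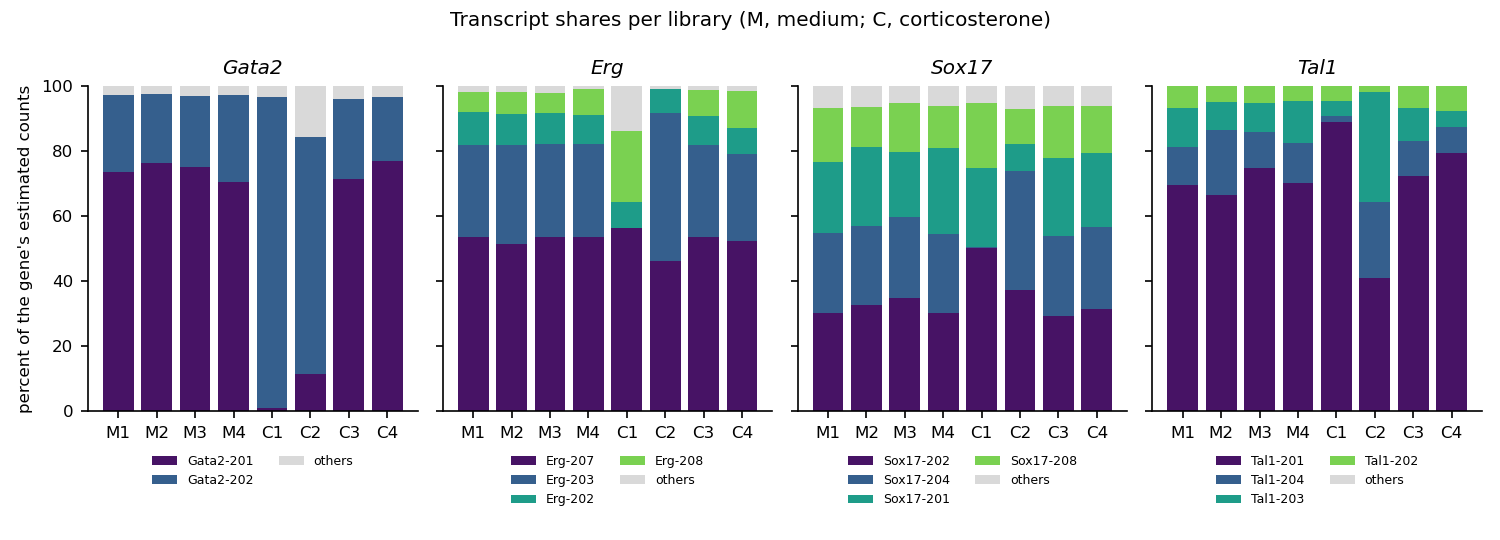
Percent of each gene's estimated counts given to its annotated transcripts (vertical axis), stacked per library, for the 4 genes with several transcripts at 5% or more; M is medium, C corticosterone, and grey is the sum of the others. C1 and C2 differ from the other 6 libraries, as in Gata2-202 at 95.8% and 72.9% against 19.5% to 26.6%.

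The 250 bases before the main Erg and Tal1 starts are shown. Those starts carried most of the counts in the 6 libraries, as did the single Foxo1 start, whose stretch is not printed. The Erg and Tal1 stretches come from RefSeq (GRCm38.p6), read 5′ to 3′ on the gene's strand. They lie at chr16:95459349-95459598 on the minus strand for Erg and chr4:115056176-115056425 on the plus strand for Tal1. Capitals mark matches, on either strand, to 6 motifs: AGAACA, which is the half-site of the glucocorticoid receptor, ACAAT for the SOX family, AGATAA for the zinc finger family of Gata2, CATCTG for the E-box of TAL1, CCGGAA for the ETS family and GTAAACA for the forkhead family.
Erg: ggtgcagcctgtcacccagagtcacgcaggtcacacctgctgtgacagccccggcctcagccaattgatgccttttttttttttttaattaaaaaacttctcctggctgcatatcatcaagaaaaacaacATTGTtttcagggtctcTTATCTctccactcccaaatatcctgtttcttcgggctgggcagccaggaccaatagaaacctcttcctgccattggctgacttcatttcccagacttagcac
Tal1: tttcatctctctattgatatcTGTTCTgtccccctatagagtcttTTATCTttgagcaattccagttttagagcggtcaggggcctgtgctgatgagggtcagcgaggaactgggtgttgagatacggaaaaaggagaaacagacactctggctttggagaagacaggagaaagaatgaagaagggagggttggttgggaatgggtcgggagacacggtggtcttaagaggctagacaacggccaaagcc

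Both stretches hold AGATAA, the Erg stretch also holds ACAAT, and in Tal1 the half-site of the receptor lies with its first base 229 bases before the start. RefSeq windows of 300 bases (250 before and 50 after a start) were found for 5 members, 9 windows in all: Erg, Ets2, Gata2, Tal1 and Foxo1. Those of Ets2, Gata2 and Foxo1, which are not printed, held none of the 6 motifs marked above. The half-site AGAACA was in 2 of the 9 windows, one of Tal1 and one of Erg, against 18.97% of all 32851 windows. The full palindromic motif of the receptor was in 0 of them, against 0.00913% of all windows. AGATAA was in 2 windows (11.2% of all), ACAAT in 1 (31.02%), and CATCTG in 1 (17.2%). CCGGAA was in 0 of the 9 windows (14.9% of all), as was the forkhead motif GTAAACA (3.65%). The ETS core GGAA, part of CCGGAA, was in all 9 and in 96.0% of all windows. Such matches describe letters in a short window and do not show binding.

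Other genes of the same families went both ways. Of 13 other ETS genes tested, 3 were higher and 4 lower (4 and 5 in 6 libraries). Over all tested genes, 19.5% were higher and 20.6% lower in 8 libraries. Etv1 rose from 0.669 to 2.27 CPM (log2 1.76 ± 0.19, edgeR, adjusted p = 1.0e-05). Elk3, a repressor of vascular genes, fell from 471 to 363 CPM (-0.38 ± 0.045), Etv6 from 54.9 to 44.3 CPM (-0.31 ± 0.030) and Elf1 from 55.2 to 48.7 CPM (-0.18 ± 0.031). Elf4, the other gene that fell, was at -0.15 and was named after its value was seen. Erf rose from 66.3 to 73.3 CPM (0.14 ± 0.033). These 6 genes kept their calls in 6 libraries by edgeR. In limma on TPM of 8 libraries Elk3, Elf1, Elf4 and Erf missed the threshold (adjusted p = 0.227, 0.722, 0.652 and 0.63). In 6 libraries Elf4 and Erf missed it there too (0.111 and 0.054). Elk1 stood at 0.13 (adjusted p = 0.039), a call that was lost in 6 libraries (0.09, adjusted p = 0.233) and in the fits without corticosterone replicate 1, 2 or 3 or medium replicate 2, 3 or 4 (adjusted p = 0.089, 0.081, 0.063, 0.055, 0.096 and 0.065).

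Only 4 of 17 other SOX genes passed the filter on low counts, with 0 higher and 3 lower (edgeR, while DESeq2 called 1 higher). The edgeR background was 19.5% higher and 20.6% lower over all tested genes. Sox4 fell from 152 ± 4.63 to 104 ± 6.14 CPM (log2 -0.55 ± 0.040, edgeR, adjusted p = 3.2e-07), or by 0.50 in 6 libraries. Sox6 and Sox12 were called lower at adjusted p = 0.014 and 0.038, and both calls were lost in 6 libraries (adjusted p = 0.088 and 0.145). Sox6 also lost it without medium replicate 2 (0.056), and Sox12 without corticosterone replicate 1, 2 or 4 or medium replicate 2, 3 or 4 (adjusted p = 0.058, 0.084, 0.096, 0.105, 0.060 and 0.103). Sox13, a SOXD gene named after its values were seen, missed the threshold in 8 libraries (0.12, edgeR, unadjusted p = 0.04984, adjusted p = 0.104), the only 1 of the 4 above 0, and passed it in 6 (0.22, adjusted p = 5.4e-05) and without corticosterone replicate 1 (adjusted p = 0.024).

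Of 15 other forkhead genes, 3 were higher and 4 lower, or 4 and 3 in 6 libraries. The background was 19.5% higher and 20.6% lower over all tested genes in 8 libraries. Foxm1, a cell cycle factor, fell from 180.0 to 137 CPM (log2 -0.39 ± 0.023). Foxp1 rose from 148 to 176 CPM (0.25 ± 0.031), Foxc2 from 11.9 to 13.7 CPM (0.20 ± 0.055), and Foxc1 from 2.899 to 5.39 CPM (0.90 ± 0.15). Foxj3, the last of the 4 lower genes, was at -0.10 (adjusted p = 0.043, edgeR) and was named after its value was seen. The first 4 of these genes kept their calls in 6 libraries, and Foxj3 lost it (-0.08, adjusted p = 0.178). Foxj3 also lost it in DESeq2 (adjusted p = 0.119), without corticosterone replicate 1, 2 or 4 (0.084, 0.102 and 0.098) and without medium replicate 1, 2 or 4 (0.078, 0.138 and 0.131). In limma on TPM Foxc2 and Foxj3 missed the threshold in 8 libraries (adjusted p = 0.078 and 0.732) and in 6 (0.093 and 0.570).

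Of 19 other endothelial transcription factors, 9 were higher and 5 lower (9 and 6 in 6 libraries). The background was 19.5% higher and 20.6% lower over all tested genes in 8 libraries. Klf4, a flow-responsive factor, rose from 31.2 ± 1.13 to 75.6 ± 7.63 CPM (log2 1.28 ± 0.066, edgeR, adjusted p = 2.5e-07). Its relative Klf2, named after its value was seen, changed by 0.92 ± 0.079. Mef2a rose from 116 to 159 CPM and Mef2c from 83.2 to 113 CPM (0.46 ± 0.025 and 0.45 ± 0.023). Nkx2-3 fell from 18.8 to 6.57 CPM (-1.52 ± 0.13), Hey1, a Notch target, from 4.39 to 2.98 CPM (-0.56 ± 0.12), and Vezf1 from 36.5 to 32.7 CPM (-0.16 ± 0.035). The named genes of this list kept their calls in 6 libraries by edgeR. In limma on TPM of 8 libraries Hey1 and Vezf1 missed the threshold (adjusted p = 0.232 and 0.870), and Vezf1 also in 6 (0.137).

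Of 37 tested endothelial genes known to be bound by ETS, SOX or TAL1 factors, 17 were higher and 11 lower, or 16 and 10 in 6 libraries. Their median log2 fold change was 0.05. The background was 19.5% higher and 20.6% lower over all tested genes in 8 libraries. Notch4, an endothelial Notch receptor, rose from 419 ± 5.81 to 727 ± 11.1 CPM (0.80 ± 0.022, edgeR, adjusted p = 3.3e-11), and the junction gene Esam from 627 ± 8.88 to 905 ± 20.97 CPM (0.53 ± 0.023). The arterial gap junction genes Gja5 and Gja4, named after their values were seen, rose by 0.64 ± 0.096 and 0.53 ± 0.070. Plvap, which forms the diaphragms of fenestrae, fell from 665 to 536 CPM (-0.31 ± 0.024), Cd34 from 1242 to 1032 CPM (-0.27 ± 0.023) and Myct1 from 166 to 116 CPM (-0.51 ± 0.029). The gene for von Willebrand factor, Vwf, also named after its value was seen, changed by -1.25 ± 0.11. All 8 genes named from this list here kept their calls in 6 libraries by edgeR. Cd34 missed the threshold in limma on TPM of 8 libraries (adjusted p = 0.527).

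**Figure D5:**
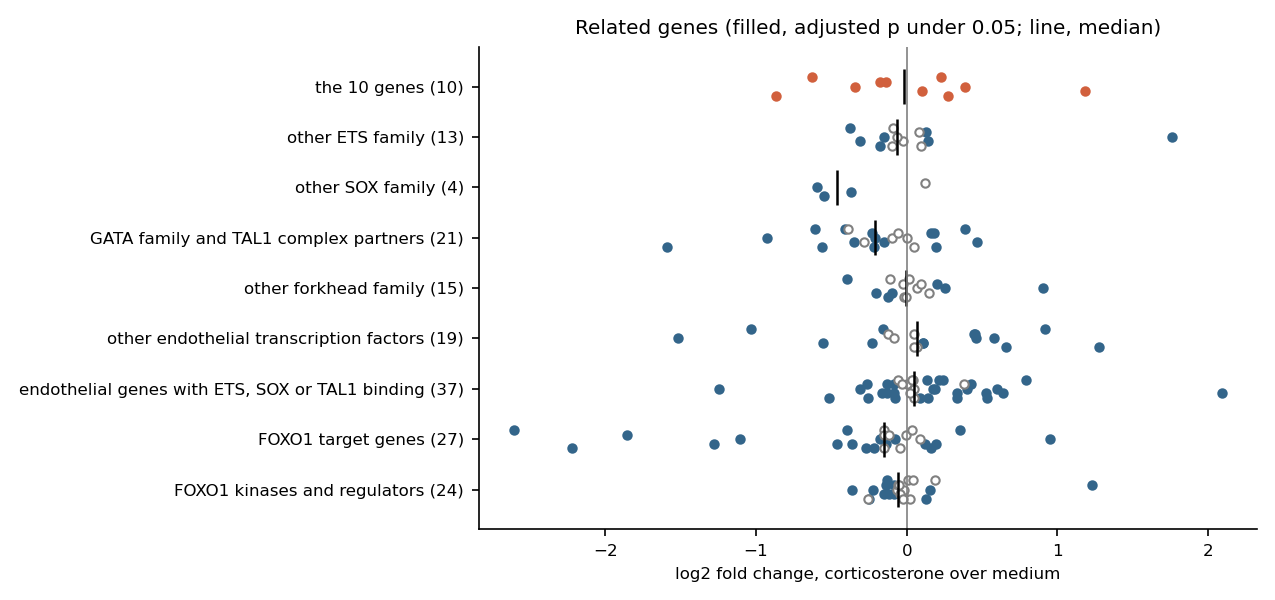
Log2 fold change of each tested gene (horizontal axis, corticosterone over medium) in the 10 members and 8 related lists, with the number tested in parentheses; filled points have an adjusted p under 0.05 and vertical lines are medians. Changes go both ways in each list but the 4 other SOX genes, where the 3 filled points are all below 0.

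Of the 8 defining endothelial markers, 5 were higher and 2 lower, or 4 and 2 in 6 libraries. All 8 are also among the bound endothelial genes above, so these calls are part of the counts given there. The background was 19.5% higher and 20.6% lower over all tested genes in 8 libraries. Cldn5, the main claudin of brain endothelium, rose by 0.40 ± 0.027, Tek by 0.34 ± 0.036 and Tie1 by 0.18 ± 0.030, beside Esam above. Cdh5 was called higher at 0.09 ± 0.024 (edgeR, adjusted p = 0.011), which was lost in 6 libraries (0.07, adjusted p = 0.113). In limma on TPM Cdh5 and Tie1 missed the threshold in 8 libraries (adjusted p = 0.279 and 0.102) and in 6 (0.558 and 0.111). Kdr and Pecam1 were called lower, at -0.13 ± 0.027 and -0.09 ± 0.027, but stood at 0.00 and 0.02 with no call in limma on TPM of 8 libraries. In 6 libraries both were called lower, Kdr at -0.15 in edgeR and -0.18 in limma on TPM (adjusted p = 0.0013 and 0.020), and Pecam1 at -0.11 and -0.14 (adjusted p = 0.018 and 0.044). The Pecam1 call was also lost without corticosterone replicate 3 or 4 or medium replicate 2 or 4 (adjusted p = 0.066, 0.076, 0.085 and 0.084). Emcn missed the threshold at -0.05 (adjusted p = 0.062) and passed it without medium replicate 3 (adjusted p = 0.048).

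Markers of other cell types were measured as well, and their part in the results above was not tested. Blood cell markers, which matter for Gata2 and Tal1, summed to 34.9 to 38.7 CPM in medium and 35.6 to 39.3 CPM with corticosterone, and 4 of 13 reached 1 CPM in a group (Cd68, Itga2b, Pf4 and Kit). None of these 4 passed the threshold in edgeR or DESeq2, and 1 had an unadjusted p under 0.05, Itga2b at 0.23 (adjusted p = 0.060 in edgeR and 0.098 in DESeq2). It passed in 6 libraries (0.37, adjusted p = 0.00085) and without corticosterone replicate 2 (0.31, adjusted p = 0.0038), while the other 3 missed the threshold in 6 libraries too. Lymphatic markers, which matter for Sox18, summed to 235 to 245 CPM in medium and 575 to 612 CPM with corticosterone. Almost all of that was Lyve1, which rose from 95.7 ± 3.901 to 407 ± 13.8 CPM (log2 2.09 ± 0.035, adjusted p = 5.7e-13), and Flt4, from 146 to 184 CPM (0.33 ± 0.026), while the defining lymphatic genes Prox1, Pdpn and Ccl21a had 0 counts in all libraries. In 6 libraries Lyve1 and Flt4 kept their calls, at 2.08 and 0.32. Both are also among the bound endothelial genes above.

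Fibroblast markers summed to 19.96 to 22.1 CPM in medium and 5.82 to 6.76 CPM with corticosterone. Only 2 of the 8 reached 1 CPM in a group, and most of the sum in each group was Pdgfra. Pdgfra fell from 18.4 to 4.87 CPM (log2 -1.92 ± 0.059) and Col1a1 from 2.28 to 1.08 CPM (-1.09 ± 0.22). Both kept their calls in 6 libraries by edgeR (-1.94 and -1.47). In limma on TPM Col1a1 missed the threshold in 8 and 6 libraries (adjusted p = 0.219 and 0.189). Pericyte and smooth muscle markers summed to 8.25 to 9.20 CPM and 5.95 to 7.83 CPM. Of their 5 tested genes 2 were called lower, Acta2 from 1.27 to 0.652 CPM (adjusted p = 0.015, edgeR) and Pdgfrb from 1.02 to 0.589 CPM (adjusted p = 0.034). Notch3 (2.27 and 2.11 CPM, adjusted p = 0.668) and Tagln (3.04 and 2.77 CPM, adjusted p = 0.540) missed the threshold, also in 6 libraries. Myh11, at 0.223 and 0.518 CPM and named after its values were seen, was filtered out in 8 libraries and called higher in 6 (1.48, edgeR, adjusted p = 0.0056). The Acta2 call held in 6 libraries (edgeR, adjusted p = 0.033) and was lost without medium replicate 4 (adjusted p = 0.063). In limma on TPM Acta2 missed the threshold in 8 and 6 libraries (adjusted p = 0.278 and 0.443). The Pdgfrb call was lost in 6 libraries (adjusted p = 0.054) and in each fit without 1 library apart from those without corticosterone replicate 1 or medium replicate 2 (adjusted p = 0.050 to 0.125). Neural and glial markers summed to 0.736 to 1.11 CPM in medium and 1.51 to 1.90 CPM with corticosterone. Of their 2 tested genes Tubb3, named after its value was seen, was called higher, from 0.250 to 0.764 CPM (1.59, edgeR, adjusted p = 0.0014), and in 6 libraries (1.48, adjusted p = 0.0054). Epithelial markers summed to 0.106 to 0.258 CPM in medium and 0.0739 to 0.108 CPM with corticosterone.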

How the data were processed

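The authors deposited a table of estimated counts for 35852 genes and, per library, kallisto tables of 119414 transcripts. Per the file headers these tables hold an estimated count, a TPM and an effective length (in nt) for each transcript. Per the submitters' processing notes, the builds mm10 and GRCm38 and the tools bcl2fastq and kallisto 0.46.1 were used. Not given in the sources used here are the transcript index, the strand setting and how transcripts were summed. Names and positions (1-based) are from GENCODE M21 on GRCm38, which matched all gene identifiers and 97.3% of transcripts. Summed transcript counts equalled the gene table within 0.5 counts.

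Counts were rounded to whole numbers and tested in R 4.3.3 by edgeR 4.0.16 (filterByExpr by group, TMM, robust quasi-likelihood F test, group only). The threshold was an adjusted p of 0.05 (Benjamini-Hochberg over 13272 genes). Ratios within a family (count plus 0.5) and transcript shares of at least 5% were compared by two-sided exact permutation tests over libraries. Alternatives used DESeq2 1.42.0, limma 3.58.1 on log2(TPM + 1), other scalings and filters, fewer libraries, and a replicate block. TPM of corticosterone replicates 1 and 2 rest on another effective length, so counts were preferred. Limma in 6 libraries was chosen after seeing the data.

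The members, gene lists and tests were chosen with earlier results of these data known. The text names the 10 members, of each related list the 3 genes that rose and the 3 that fell with the lowest p at 1 CPM or more, all 8 endothelial markers, and markers of other cells at 1 CPM or more in a group. Other genes were named after their values were seen. The fit was tested on simulated data: its first limit, on recovery of 2-fold changes over all genes, was missed, and the limits were then reset to well counted genes and larger changes with that result known. Precision is set by the number of libraries, and low markers by counting error as well.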

Additional observations from a re-analysis of the deposited data

Results flagged for a closer look

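In 11 of 192 sets of 4 replicate values examined, a single library lay far from the other 3, where chance flags about 1 in 20. Among the 10 genes this held for Sox18, at 278 CPM in corticosterone replicate 3 against 284 to 285 CPM in the others, a gap small beside its fall. Among other genes, corticosterone replicate 3 was high for Zfpm2 (15.5 CPM) and Vezf1 (34.2 CPM), and corticosterone replicate 2 was low for Apln (192 CPM). Medium replicate 3 was low for Sox4 (145 CPM) and Ldb2 (54.6 CPM), and medium replicate 4 was high for Ywhag (373 CPM). Among transcript shares, Sox17-201 was low in corticosterone replicate 2 (8.54%). Medium replicate 2 was low for Erg-207 (51.4%) and high for Erg-203 (30.5%) and Tal1-204 (20.1%).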

How the results depend on the processing

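Over 19 alternatives no member changed direction. Sox7, Sox17, Sox18, Gata2 and Foxo1 kept their calls in all 19, Fli1 and Ets1 in 18, Erg in 16, Tal1 in 15 and Ets2 in 8. The replicate numbers do not pair the samples (correlation of same-numbered deviations -0.053 to 0.030), and the replicate block gave 2391 genes higher and 2522 lower, with 5 members each way. The family ratios kept their values under the block, where no p under 0.125 is possible. Scaling by library size gave 2191 higher and 3365 lower.

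Limma on log2(TPM + 1) called 1034 genes higher and 641 lower of 13272 tested, with 4 members higher and 3 lower. Higher and lower were 1 and 1 of 13 other ETS genes, 1 and 3 of 21 GATA and TAL1 partners, and 11 and 4 of 37 bound endothelial genes. Among 27 FOXO1 targets they were 1 and 5, and among 24 FOXO1 regulators 1 and 0. Of 4 other SOX genes 0 were higher and 1 lower, of 15 forkhead genes 2 and 1, and of 19 other endothelial factors 6 and 2. With a pseudocount of 0.1 the totals were 1033 and 635 and the list counts equal, but for 1 FOXO1 regulator lower. Without a filter they were 798 and 501 of 24332 tested genes, with 2 members higher and 3 lower. There, 9 bound genes were higher and 2 partners lower, the rest as with a pseudocount of 0.1. The log2 fold change of Pecam1 was 0.0239, 0.0240 and 0.0239 and that of Kdr 0.00441, 0.00438 and 0.00441 in these 3 fits. In 6 libraries limma called 1276 higher and 1590 lower of 13272 tested genes, with 4 members each way. There, 1 other ETS gene, 3 partners, 2 forkhead genes, 7 other endothelial factors, 13 bound genes, 3 FOXO1 targets and 1 regulator were higher. Lower were 1 other SOX gene, 2 forkhead genes, 3 other endothelial factors, 7 targets and 5 regulators. The lower counts of the other lists are not given here.

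By edgeR in 6 libraries, and with a term for corticosterone replicates 1 and 2, 1 other SOX gene was higher and 1 lower. Both fits also had 5 FOXO1 regulators higher. Over all tested genes they gave 2511 higher and 2454 lower of 13639, and 2199 and 2286 of 13272. DESeq2 called 1 other SOX gene higher, beside 2604 genes higher and 2395 lower of 24332. Leaving out 1 library gave 0 to 1 other SOX genes higher, 1 to 3 lower, and 3 to 5 forkhead genes higher. Those fits called 2353 to 2556 genes higher and 2400 to 2591 lower, of 13414 to 13493 tested. As TPM ratios, Fli1/Ets1 passed at -0.12, and Fli1/Ets2 (0.035) and Ets1/Ets2 (0.16) did not. The cause of these differences was not tested. Ratios and shares with fewer than 8 libraries allow no p under 0.05714.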
